A study of Homo sapiens with 8 samples.

Results

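The interferon response genes are genes that cells switch on when type I or type II interferon reaches its receptors. The members were 41 symbols, which stand for 40 genes because RIGI and DDX58 name the same RNA sensor, and they were found by symbol in a table of 24598 genes. Of the 40 genes, 39 had a row and all 39 entered the tests, which covered 22866 genes. RIGI is listed as DDX58, and OASL is not analysed here. OAS1 and RSAD2 passed the filter on low values only through celastrol-treated libraries. The mean over all libraries was at least 50 normalized reads for 35 members.

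The members were followed in CCD-1077Sk, a fibroblast line from normal human skin, grown past passage 8 in high glucose DMEM with 10% serum to about 70% confluency and collected 6 h after treatment. The 4 groups had 2 libraries each. The first received transforming growth factor beta 1 (TGFB1) together with celastrol at 500 nM, the second celastrol at 500 nM with the vehicle of TGFB1 (BSA and citric acid), the third TGFB1 with DMSO, and the control group BSA, citric acid and DMSO. TGFB1 is the growth factor best known for turning fibroblasts toward matrix synthesis, and celastrol is a plant triterpenoid known to induce the heat shock response. The labels name no interferon treatment and no TGFB1 dose, and a single line stands for skin fibroblasts. The study asked what celastrol does to the transcriptional response to TGFB1.

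Values are normalized reads, that is, estimated reads divided by 1 size factor per library, and differences are log2 differences of (value + 1) from a limma fit to all 8 libraries. Called means a Benjamini-Hochberg adjusted p under 0.05, and every adjusted p below is from that fit. Libraries held 20716706 to 42518357 estimated reads, and 3 reads, the limit that a count of 0 allows, correspond to 1.8 to 4.24 normalized reads. Separate cultures are not stated in the labels, so a p-value reflects only how far the deposited libraries of a group spread, and that spread may be technical. All 10 fibroblast marker genes had rows, with a summed level of 381771 to 674411 normalized reads per library.

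Interferons bind surface receptors that activate the kinases JAK1, JAK2 and TYK2. For type I interferon these phosphorylate STAT proteins, STAT2 among them, which join IRF9 in the complex ISGF3, and ISGF3 binds the interferon-stimulated response element (ISRE) in the promoters of its target genes. Interferon gamma acts mainly through STAT dimers at the gamma activated sequence (GAS). The products of the target genes sense foreign RNA, block its translation or replication, tag proteins with ISG15, or feed back on the pathway itself. Fibroblasts both make interferon beta and respond to it, and interferon-stimulated genes are a known feature of skin and blood in systemic sclerosis.

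By summed level, in which abundant members weigh most, the members were lowest in the libraries with TGFB1 alone. This does not hold for every member. Their summed level was 32396 and 32929 normalized reads with TGFB1 and celastrol, 34152 and 33663 with celastrol alone, 24684 and 24203 with TGFB1 alone and 31618 and 31104 in controls. Both TGFB1 libraries lay below all 6 others, and the other 3 groups lay within a narrower band. In a bulk sample, fewer cells of a type and less RNA per cell cannot be told apart. On the first principal component of the members, which held 70.9% of their variance, scores were -2.35 and -2.26 with TGFB1 and celastrol, -2.32 and -1.67 with celastrol alone, 2.85 and 4.88 with TGFB1 alone and 0.284 and 0.587 in controls.

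Adding celastrol to TGFB1, set against TGFB1 alone, gave 22 of 39 members called higher and 1 lower, where 37.5% of all tested genes were called higher and 25.9% lower. The median log2 difference was 0.52 over the members and 0.12 over all genes. Celastrol alone, set against control, gave 14 members called higher and 2 lower, against 33.8% and 21.3% of all genes, with medians of 0.28 and 0.08. The share of members called higher with celastrol alone was thus close to that of all genes, and is no result about the members. TGFB1 alone, set against control, gave 1 member called higher and 15 lower, against 12.8% and 10.6% of all genes, with a median of -0.26 over the members and 0 over all genes. The comparison of celastrol added to TGFB1 shares the TGFB1 libraries with that of TGFB1 alone, which shares the controls with that of celastrol alone, so opposite signs between them are not independent. The interaction asks whether the celastrol difference depended on TGFB1: 8 members were called higher in it and 0 lower, against 4.36% and 6.89% of all genes, with medians of 0.29 and 0.01. Among the 35 members averaging at least 50 normalized reads, the calls were 21 higher and 1 lower with celastrol added to TGFB1, 13 and 2 with celastrol alone, and 1 and 15 with TGFB1 alone. All genes with that mean were not counted. With the filter raised to 50 normalized reads in 2 libraries, 4990 of 16092 genes were higher and 5472 lower with celastrol added to TGFB1. With celastrol alone 4619 and 4351 were, and with TGFB1 alone 3011 and 2195. TGFB1 libraries also had larger table totals (29888640 and 30237740 normalized reads) than control libraries (25909420 and 25503510), and with every library scaled to a common total 21 of 39 members were called lower and 0 higher with TGFB1 alone, where 5398 of 22866 genes were called lower and 1417 higher.

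**Figure D1:**
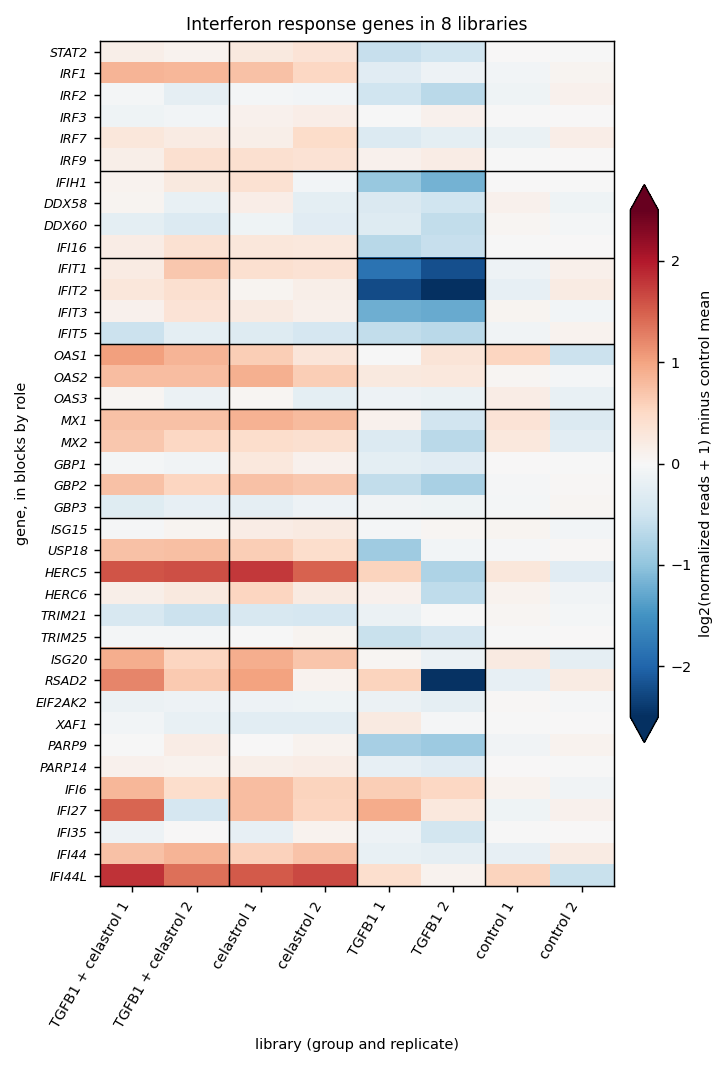
Level of the 39 measured interferon response genes in each of the 8 libraries, as log2(normalized reads + 1) minus the mean of the 2 control libraries, with genes in rows by role and libraries in columns. The 2 columns with TGFB1 alone hold the lowest values of IFIT1, IFIT2, IFIT3, IFIH1 and PARP9, while IFI44L and HERC5 are high in all 4 columns with celastrol.

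The IFIT genes, whose products bind RNA that lacks the marks of host messenger RNA, included the members with the largest called falls with TGFB1 alone, IFIT2, IFIT1 and IFIT3. The 4 genes lie side by side on chromosome 10, at chr10:89283694-89420997 (hg38), and all 4 were lower with TGFB1 alone than in controls. IFIT1, IFIT2 and IFIT3 were higher when celastrol was added to TGFB1, and none of the 4 was called higher with celastrol alone. Their promoter windows, read from RefSeq (GRCh38.p14) from 250 bases before to 50 bases after the gene start, are printed in the direction of transcription to show where the ISRE core lies. Capitals mark the core, which was searched as GAAA, any 2 bases and GAAA, or on the other strand TTTC, any 2 bases and TTTC. IFIT2 has no entry in the promoter table used. ISG15, which was called in none of the comparisons, is printed for contrast.
IFIT1 promoter, chr10:89392373-89392672, plus strand: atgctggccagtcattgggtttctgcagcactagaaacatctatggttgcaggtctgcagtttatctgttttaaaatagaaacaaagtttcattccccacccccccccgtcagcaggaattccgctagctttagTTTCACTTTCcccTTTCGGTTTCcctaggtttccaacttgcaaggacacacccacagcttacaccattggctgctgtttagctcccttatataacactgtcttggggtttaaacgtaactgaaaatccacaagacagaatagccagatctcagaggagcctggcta
IFIT3 promoter, chr10:89332279-89332578, plus strand: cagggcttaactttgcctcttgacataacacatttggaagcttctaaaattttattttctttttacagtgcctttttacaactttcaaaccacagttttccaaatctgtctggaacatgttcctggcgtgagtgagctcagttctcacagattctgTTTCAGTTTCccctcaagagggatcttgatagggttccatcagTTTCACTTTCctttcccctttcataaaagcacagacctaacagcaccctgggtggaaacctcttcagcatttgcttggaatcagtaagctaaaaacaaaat
IFIT5 promoter, chr10:89414318-89414617, plus strand: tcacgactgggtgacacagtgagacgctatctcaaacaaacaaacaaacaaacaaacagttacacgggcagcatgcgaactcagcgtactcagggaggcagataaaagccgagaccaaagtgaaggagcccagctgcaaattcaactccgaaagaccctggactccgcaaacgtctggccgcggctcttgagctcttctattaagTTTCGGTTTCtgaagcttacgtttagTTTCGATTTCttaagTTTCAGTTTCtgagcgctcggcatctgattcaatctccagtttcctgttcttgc
ISG15 promoter, chr1:1013247-1013546, plus strand: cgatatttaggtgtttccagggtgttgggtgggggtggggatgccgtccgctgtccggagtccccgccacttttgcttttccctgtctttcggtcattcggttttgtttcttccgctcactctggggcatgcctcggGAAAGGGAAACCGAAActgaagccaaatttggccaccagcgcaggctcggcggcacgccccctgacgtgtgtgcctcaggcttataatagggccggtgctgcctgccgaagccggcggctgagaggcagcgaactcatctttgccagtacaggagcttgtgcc

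The core occurs in the windows of all 3 IFIT genes shown and in that of ISG15, so its presence does not separate genes that TGFB1 lowered from ISG15.

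IFIT2 (chr10:89283694-89309271), the member with the largest difference with celastrol added to TGFB1 and with TGFB1 alone, had 366 and 401 normalized reads with TGFB1 and celastrol, 316 and 334 with celastrol alone, 63.6 and 46.7 with TGFB1 alone and 261 and 351 in controls. Both TGFB1 libraries were far below all others, the TGFB1 and celastrol libraries were the highest, and controls overlapped celastrol alone. The log2 difference was 2.79 (SE 0.19, adjusted p = 5.43e-06) for celastrol added to TGFB1, 0.10 (adjusted p = 0.679) for celastrol alone and -2.45 (SE 0.19, adjusted p = 4.89e-05) for TGFB1 alone. The long noncoding RNA AL353751.1 overlaps IFIT2 exons on the same strand, and reads could have been divided between them. LIPA overlaps IFIT2 exons on the opposite strand, and the use of strand in counting is not given.

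IFIT1 (chr10:89392546-89406487), which binds capped RNA without the host methyl marks, had 548 and 758 normalized reads with TGFB1 and celastrol, 623 and 612 with celastrol alone, 131 and 102 with TGFB1 alone and 434 and 519 in controls. The TGFB1 libraries again stood apart, and the TGFB1 and celastrol libraries were the most spread. Its difference was 2.47 (SE 0.18, adjusted p = 7.59e-06) with celastrol added to TGFB1, 0.38 (adjusted p = 0.103) with celastrol alone and -2.03 (SE 0.18, adjusted p = 0.000101) with TGFB1 alone.

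IFIT3 (chr10:89327997-89340971), a partner that stabilises IFIT1 on RNA, had 822 and 962 normalized reads with TGFB1 and celastrol, 889 and 834 with celastrol alone, 325 and 317 with TGFB1 alone and 793 and 727 in controls. Both TGFB1 libraries were far below the other 6, which lay close together. The difference was 1.47 (SE 0.10, adjusted p = 4.54e-06) with celastrol added to TGFB1, 0.18 (adjusted p = 0.14) with celastrol alone and -1.24 (SE 0.10, adjusted p = 4.98e-05) with TGFB1 alone.

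IFIT5 (chr10:89414568-89420997), which binds RNA with an exposed phosphate end, departed from this pattern, with 1002 and 1217 normalized reads with TGFB1 and celastrol, 1161 and 1083 with celastrol alone, 941 and 914 with TGFB1 alone and 1374 and 1532 in controls. Controls were the highest group, and both celastrol groups lay between controls and TGFB1. It fell with TGFB1 alone, by 0.65 on the log2 scale (adjusted p = 0.00237), and with celastrol alone, by 0.37 (adjusted p = 0.0129), and the difference with celastrol added to TGFB1 was 0.25 (adjusted p = 0.0555). The call with celastrol alone was lost on leaving out celastrol replicate 2 or control replicate 2 (adjusted p = 0.0894 and 0.0929) and without a variance trend (0.0543).

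The interaction was positive and called for all 4 IFIT genes. It was 2.69 (SE 0.27, adjusted p = 0.000521) for IFIT2, 2.09 (SE 0.25, adjusted p = 0.00133) for IFIT1, 1.29 (SE 0.13, adjusted p = 0.000717) for IFIT3 and 0.62 (SE 0.14, adjusted p = 0.0266) for IFIT5. The IFIT5 interaction was lost on leaving out TGFB1 and celastrol replicate 2, either celastrol library, TGFB1 replicate 2 or control replicate 2 (adjusted p = 0.0587 to 0.114), with median centring (0.0552) and without a variance trend (0.113). LIPA, which encodes a lysosomal lipase and spans part of the same locus on the opposite strand, is no member of the set. LIPA differed by 0.59 with celastrol added to TGFB1 (adjusted p = 0.000145) and by 0.08 with celastrol alone (adjusted p = 0.4). With TGFB1 alone it fell by 0.58 on the log2 scale (adjusted p = 0.000762), and its interaction was 0.51 (adjusted p = 0.0159). The signs of these calls were thus those of IFIT1, IFIT2 and IFIT3, at a smaller size. LIPA overlaps IFIT2 exons and the use of strand in counting is not given. Reads could therefore have been shared between LIPA and IFIT2, which was not tested.

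**Figure D2:**
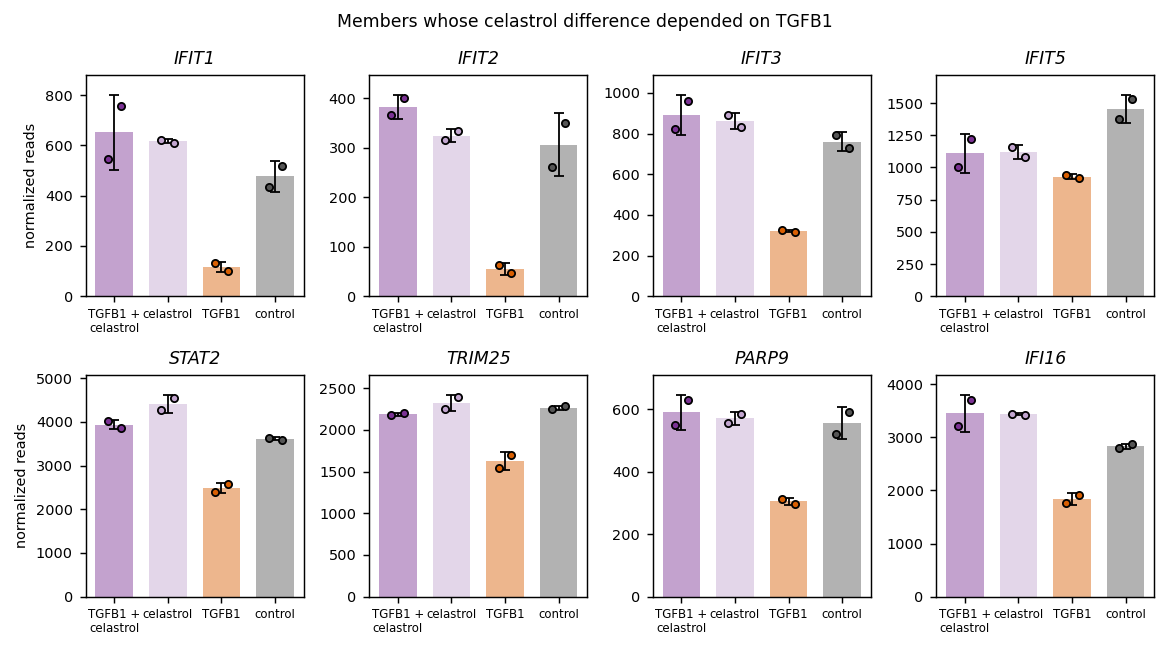
Normalized reads of the 8 interferon response genes called in the interaction, by group; bars are means of 2 libraries, points the libraries and whiskers the SD, and each panel starts at 0. In every panel the TGFB1 group is the lowest, and only in that of IFIT5 are both celastrol groups below the control libraries.

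Of the 6 transcription factors of the set, 4 were called higher with celastrol added to TGFB1, 3 with celastrol alone, and 2 lower with TGFB1 alone. Counts by role, here and below, are to be read against the shares of all genes called. These were 37.5% higher with celastrol added to TGFB1, 33.8% higher with celastrol alone, and 12.8% higher and 10.6% lower with TGFB1 alone. STAT2 (chr12:56341597-56360167), the subunit of ISGF3 that is specific to type I and type III interferon signalling, had 4019.7 and 3863 normalized reads with TGFB1 and celastrol, 4269 and 4559 with celastrol alone, 2407 and 2572 with TGFB1 alone and 3636 and 3588 in controls. Its groups did not overlap in any of the 3 comparisons, and TGFB1 was the lowest. STAT2 differed by 0.66 (SE 0.06, adjusted p = 2.54e-05) with celastrol added to TGFB1, by 0.29 (SE 0.06, adjusted p = 0.0035) with celastrol alone and by -0.54 (SE 0.06, adjusted p = 0.00039) with TGFB1 alone. The celastrol-alone call was lost with median centring (adjusted p = 0.115). The STAT2 interaction, 0.37 (adjusted p = 0.026), was lost on leaving out either TGFB1 and celastrol library, celastrol replicate 1, TGFB1 replicate 1 or either control library (adjusted p = 0.0527 to 0.0976), with median centring (0.0748) and without a variance trend (0.136).

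IRF1 (chr5:132481609-132490777), an activator induced mainly by interferon gamma and by NF-kB, had 742 and 724 normalized reads with TGFB1 and celastrol, 676 and 583 with celastrol alone, 335 and 376 with TGFB1 alone and 391 and 427 in controls. All 4 celastrol libraries were above all 4 others. It rose by 1.04 on the log2 scale with celastrol added to TGFB1 (adjusted p = 4.21e-05) and by 0.62 with celastrol alone (adjusted p = 0.00112), and both calls held under every alternative run. With TGFB1 alone the IRF1 difference was -0.20 (adjusted p = 0.203).

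IRF2, a repressor that competes with IRF1 for its sites, had 469 and 414 normalized reads with TGFB1 and celastrol, 468 and 461 with celastrol alone, 342 and 305 with TGFB1 alone and 449 and 524 in controls. Only the TGFB1 libraries lay apart, below the rest. The IRF2 difference was 0.45 (SE 0.11, adjusted p = 0.00789) with celastrol added to TGFB1, -0.06 (adjusted p = 0.677) with celastrol alone and -0.59 (SE 0.11, adjusted p = 0.00676) with TGFB1 alone. The first of these calls was lost on leaving out TGFB1 and celastrol replicate 1 (adjusted p = 0.0658) and with median centring (0.264), and the TGFB1 call on leaving out control replicate 2 (adjusted p = 0.0571) and with the 4 compared libraries fitted alone (0.0975).

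IRF9, the DNA-binding subunit of ISGF3, had 587 and 702 normalized reads with TGFB1 and celastrol, 709 and 682 with celastrol alone, 576 and 609 with TGFB1 alone and 533 and 535 in controls. Both celastrol-alone libraries were above both controls, and the TGFB1 and celastrol libraries overlapped those with TGFB1 alone. The IRF9 call was for celastrol alone, 0.38 (SE 0.10, adjusted p = 0.0093), and was lost on leaving out celastrol replicate 1 (adjusted p = 0.0562) and with median centring (0.0885). AL136295.5 overlaps IRF9 exons on the same strand.

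IRF7, which amplifies interferon alpha production, had means of 91.9 ± 3.89 with TGFB1 and celastrol and 62.9 ± 3.12 with TGFB1 alone (SD, n = 2 each). Its one call, 0.54 (adjusted p = 0.0491), was lost on leaving out either TGFB1 and celastrol library, either celastrol library or either TGFB1 library (adjusted p = 0.0558 to 0.169), with median centring (0.317) and with the 4 compared libraries fitted alone (0.0643). IRF3, the factor that sensors activate to start interferon beta transcription, was called in no comparison, and its log2 differences lay between -0.14 and 0.14 in the 3 comparisons.

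Of the 4 sensors and helicases, 2 were called higher with celastrol added to TGFB1, 1 with celastrol alone, and 3 lower with TGFB1 alone. IFI16 (chr1:158999968-159055155), a nuclear DNA sensor, had 3207 and 3699 normalized reads with TGFB1 and celastrol, 3447 and 3423 with celastrol alone, 1757 and 1914 with TGFB1 alone and 2803 and 2868 in controls. Groups did not overlap in any of the 3 comparisons. The IFI16 difference was 0.91 (SE 0.08, adjusted p = 1.76e-05) with celastrol added to TGFB1, 0.28 (SE 0.08, adjusted p = 0.0144) with celastrol alone and -0.63 (SE 0.08, adjusted p = 0.00063) with TGFB1 alone. Its interaction was 0.63 (adjusted p = 0.00751), lost without a variance trend (adjusted p = 0.0699). The celastrol-alone call was lost on leaving out either celastrol library or either control library (adjusted p = 0.05 to 0.0749) and under 3 other alternatives (adjusted p = 0.058 to 0.263).

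IFIH1, which encodes the double-stranded RNA sensor MDA5, had 116 and 131 normalized reads with TGFB1 and celastrol, 144 and 105 with celastrol alone, 56.5 and 47.9 with TGFB1 alone and 110.1 and 109.8 in controls. TGFB1 libraries were at about 50 normalized reads and all others above 100. IFIH1 differed by 1.23 (SE 0.21, adjusted p = 0.000817) with celastrol added to TGFB1, by 0.16 (adjusted p = 0.536) with celastrol alone and by -1.06 (SE 0.21, adjusted p = 0.00667) with TGFB1 alone. The TGFB1 call was lost with the 4 compared libraries fitted alone (adjusted p = 0.0643), and the interaction was 1.07 (adjusted p = 0.0502), just outside the threshold.

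DDX60, a helicase that assists these sensors, had a mean of 524 ± 75.3 normalized reads with TGFB1 alone and 721 ± 37.1 in controls (SD, n = 2 each). Its call was for TGFB1 alone, -0.46 (adjusted p = 0.0188), and was lost on leaving out TGFB1 replicate 2 or either control library (adjusted p = 0.0565 to 0.11) and under 3 other alternatives (adjusted p = 0.0539 to 0.151). DDX58, which encodes the sensor RIG-I, was called in no comparison, with differences of 0.36 (adjusted p = 0.0644) for celastrol added to TGFB1 and -0.43 (adjusted p = 0.078) for TGFB1 alone.

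The OAS enzymes make oligoadenylates that activate RNase L. OAS2 was the one of the 3 measured with a call. It had 111 and 110.1 normalized reads with TGFB1 and celastrol, 119.8 and 99.3 with celastrol alone, 76.3 and 77.4 with TGFB1 alone and 66.3 and 62.4 in controls, with all 4 celastrol libraries above the other 4. The OAS2 difference was 0.75 (SE 0.18, adjusted p = 0.00717) with celastrol alone, lost on leaving out celastrol replicate 1 (adjusted p = 0.0541), and 0.52 (SE 0.18, adjusted p = 0.0332) with celastrol added to TGFB1, lost on leaving out either TGFB1 and celastrol library or either TGFB1 library (adjusted p = 0.0656 to 0.107), with median centring (0.28) and with the 4 compared libraries fitted alone (0.0535). OAS3, with 1221 to 1641 normalized reads over the 8 libraries, and OAS1, with 3.6 to 12.6, were called in no comparison. The 3 genes are neighbours on chromosome 12 (chr12:112906783-113011723).

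Of the 5 dynamin-like and guanylate-binding GTPases, which act against virus capsids and intracellular membranes, 4 were called higher with celastrol added to TGFB1, 3 with celastrol alone, and 2 lower with TGFB1 alone. GBP2 (chr1:89106132-89150456) had 164 and 143 normalized reads with TGFB1 and celastrol, 163 and 157 with celastrol alone, 63.6 and 55.3 with TGFB1 alone and 96.3 and 99.6 in controls. Celastrol libraries were the highest, controls lay below them and TGFB1 libraries were the lowest, with no overlap between these 3 levels. GBP2 rose by 1.35 with celastrol added to TGFB1 (adjusted p = 0.000133) and by 0.70 with celastrol alone (adjusted p = 0.00662), and fell by 0.71 with TGFB1 alone (adjusted p = 0.0155), all on the log2 scale. The TGFB1 call was lost on leaving out TGFB1 replicate 2 or either control library (adjusted p = 0.0507 to 0.0738) and with the 4 compared libraries fitted alone (0.101). GBP2 and GBP7 overlap in exons on the same strand, and the GBP genes are close paralogs, so their reads could have been shared.

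GBP1 ranged from 1826 to 2671 normalized reads over the 8 libraries. Its differences were small: 0.20 (adjusted p = 0.0253) with celastrol added to TGFB1, which became -0.09 (adjusted p = 0.26) with each library centred on its median, 0.19 (adjusted p = 0.0352) with celastrol alone and -0.26 (adjusted p = 0.0212) with TGFB1 alone. All 3 GBP1 calls were lost on leaving out some single libraries. With celastrol added to TGFB1 the call was lost on leaving out either TGFB1 and celastrol library or either TGFB1 library (adjusted p = 0.0556 to 0.108), with median centring (0.26) and without a variance trend (0.0932). With celastrol alone it was lost on leaving out either TGFB1 and celastrol library, celastrol replicate 1 or either control library (adjusted p = 0.0539 to 0.19) and under 4 other alternatives (adjusted p = 0.066 to 0.798). With TGFB1 alone it was lost on leaving out either TGFB1 library or either control library (adjusted p = 0.0519 to 0.113), with median centring (0.141) and without a variance trend (0.0996). GBP3, next to GBP1 on chromosome 1, was called in no comparison.

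MX1 and MX2, neighbours on chromosome 21, were both called higher with celastrol added to TGFB1. MX1 averaged 481 ± 0.786 normalized reads with TGFB1 and celastrol and 261 ± 74.8 with TGFB1 alone (SD, n = 2 each), a difference of 0.91 (SE 0.24, adjusted p = 0.00887). MX1 was also called with celastrol alone, at 0.83 (SE 0.24, adjusted p = 0.0159). The first MX1 call was lost on leaving out either TGFB1 and celastrol library or TGFB1 replicate 2 (adjusted p = 0.0578 to 0.0584), the second on leaving out either celastrol library or control replicate 2 (adjusted p = 0.072 to 0.105) and without a variance trend (0.0589). MX2 averaged 241 ± 18.4 with TGFB1 and celastrol and 112 ± 17.5 with TGFB1 alone (SD, n = 2 each), a difference of 1.11 (SE 0.20, adjusted p = 0.00125) that held under every alternative run.

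ISG15 is a ubiquitin-like protein that HERC5 attaches to other proteins and USP18 removes. ISG15 itself had 405 and 437 normalized reads with TGFB1 and celastrol, 476 and 487 with celastrol alone, 403 and 433 with TGFB1 alone and 436 and 396 in controls, and all 4 groups overlapped or lay within 100 normalized reads of each other. The ISG15 difference was 0.01, 95% interval -0.20 to 0.23, with celastrol added to TGFB1, 0.21, 95% interval -0.0034 to 0.42, with celastrol alone and 0.00, 95% interval -0.21 to 0.22, with TGFB1 alone, none of them called. USP18, which also blocks the interferon receptor from inside the cell, averaged 98.2 ± 1.18 with TGFB1 and celastrol and 43.2 ± 17.1 with TGFB1 alone (SD, n = 2 each), a difference of 1.22 (SE 0.28, adjusted p = 0.00441). The USP18 difference with celastrol alone was 0.53 (adjusted p = 0.135). HERC5 averaged 35.7 ± 0.894 with TGFB1 and celastrol, 36.4 ± 5.3 with celastrol alone, 11.5 ± 7.64 with TGFB1 alone and 11.4 ± 3.37 in controls (SD, n = 2 each). HERC5 rose by 1.70 with celastrol added to TGFB1 (adjusted p = 0.0109), lost on leaving out either TGFB1 and celastrol library (adjusted p = 0.0568 and 0.0619). With celastrol alone it rose by 1.62 (adjusted p = 0.0159), lost on leaving out either celastrol library or control replicate 2 (adjusted p = 0.0572 to 0.0932). HERC6, its neighbour on chromosome 4, was called in no comparison.

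Both TRIM ubiquitin ligases were called with celastrol added to TGFB1, in opposite directions. TRIM25, the ligase that activates RIG-I, had 2177 and 2201 normalized reads with TGFB1 and celastrol, 2251 and 2390.4 with celastrol alone, 1548 and 1699 with TGFB1 alone and 2251 and 2283 in controls. Only the TGFB1 libraries stood apart. TRIM25 differed by 0.43 (SE 0.06, adjusted p = 0.000424) with celastrol added to TGFB1, by 0.03 (adjusted p = 0.693) with celastrol alone and by -0.48 (SE 0.06, adjusted p = 0.00101) with TGFB1 alone. Median centring ended the first call (adjusted p = 0.0727), and fitting only the 4 compared libraries ended the TGFB1 call (0.0525). Its interaction, 0.40 (adjusted p = 0.0265), was lost on leaving out either TGFB1 and celastrol library, either celastrol library, TGFB1 replicate 1 or either control library (adjusted p = 0.0513 to 0.102), with median centring (0.0727) and without a variance trend (0.127). C17orf67 and MIR3614 overlap TRIM25 exons on the same strand.

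TRIM21, a cytosolic antibody receptor that marks its targets for the proteasome, had 369 and 336 normalized reads with TGFB1 and celastrol, 371 and 366 with celastrol alone, 443 and 489 with TGFB1 alone and 509 and 473 in controls. Celastrol libraries were below all 4 others. It fell by 0.40 with celastrol added to TGFB1 (adjusted p = 0.00616) and by 0.41 with celastrol alone (adjusted p = 0.00654), on the log2 scale. The second call was lost on leaving out control replicate 1 (adjusted p = 0.0525). TRIM21 was the one member called lower in the first of these comparisons.

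Of the 11 other effectors, 5 were called higher with celastrol added to TGFB1 and 5 with celastrol alone. With TGFB1 alone 1 was called higher and 3 lower. PARP9 (chr3:122527924-122564577), an ADP-ribosyltransferase that works with DTX3L on interferon signalling, had 550.3 and 629 normalized reads with TGFB1 and celastrol, 556 and 586 with celastrol alone, 314 and 296 with TGFB1 alone and 520.3 and 591 in controls. The TGFB1 libraries lay at about 300 normalized reads and all others above 500. PARP9 differed by 0.95 (SE 0.10, adjusted p = 6.89e-05) with celastrol added to TGFB1, by 0.04 (adjusted p = 0.763) with celastrol alone and by -0.86 (SE 0.10, adjusted p = 0.00056) with TGFB1 alone. Its interaction was 0.91 (SE 0.15, adjusted p = 0.0055). DTX3L (chr3:122564338-122575203) overlaps PARP9 only at the end of its span, on the opposite strand. Without a statement on strand, reads within that overlap cannot be told apart.

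PARP14, on chromosome 3 near PARP9 and also an ADP-ribosyltransferase, had 3189 and 3119.9 normalized reads with TGFB1 and celastrol, 3250.3 and 3351 with celastrol alone, 2549 and 2414 with TGFB1 alone and 2963 and 2939 in controls. All 4 celastrol libraries were the highest and the TGFB1 libraries the lowest, over a narrow range. The PARP14 difference was 0.35 (SE 0.05, adjusted p = 0.000564) with celastrol added to TGFB1, 0.16 (adjusted p = 0.0325) with celastrol alone, which became -0.01 (adjusted p = 0.901) with median centring, and -0.25 (adjusted p = 0.0115) with TGFB1 alone. The first call was lost with median centring (adjusted p = 0.4). The celastrol-alone call was lost on leaving out either celastrol library or either control library (adjusted p = 0.0571 to 0.131) and under 3 other alternatives (adjusted p = 0.125 to 0.901). The TGFB1 call was lost on leaving out TGFB1 replicate 2 or either control library (adjusted p = 0.0504 to 0.0736) and under 3 other alternatives (adjusted p = 0.0681 to 0.14).

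IFI44 and IFI44L, neighbours on chromosome 1 whose products restrain virus replication, were higher in all celastrol libraries. IFI44 had 234 and 252 normalized reads with TGFB1 and celastrol, 209 and 230.1 with celastrol alone, 123 and 119 with TGFB1 alone and 121 and 162 in controls, and all 4 celastrol libraries were above the other 4. The IFI44 difference was 1.00 (SE 0.16, adjusted p = 0.000708) with celastrol added to TGFB1 and 0.64 (SE 0.16, adjusted p = 0.00929) with celastrol alone, the second lost on leaving out celastrol replicate 2 or control replicate 1 (adjusted p = 0.0649 and 0.0666). IFI44L had 222 and 164 normalized reads with TGFB1 and celastrol, 182 and 197 with celastrol alone, 83.3 and 66.4 with TGFB1 alone and 92.5 and 42 in controls, again with no overlap between the celastrol libraries and the rest. IFI44L rose by 1.59 with celastrol alone (SE 0.34, adjusted p = 0.00393), a call that held under every alternative run. With celastrol added to TGFB1 IFI44L rose by 1.35 (SE 0.34, adjusted p = 0.00759), lost on leaving out TGFB1 and celastrol replicate 1 (adjusted p = 0.0764).

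ISG20, an RNA exonuclease, had 203 and 158 normalized reads with TGFB1 and celastrol, 203 and 176 with celastrol alone, 112 and 98.3 with TGFB1 alone and 128 and 92.4 in controls. Its celastrol libraries were above the other 4, though spread within each group. ISG20 differed by 0.77 (SE 0.21, adjusted p = 0.0103) with celastrol added to TGFB1, lost on leaving out TGFB1 and celastrol replicate 1 (adjusted p = 0.0909) and with median centring (0.0582), and by 0.79 (SE 0.21, adjusted p = 0.0106) with celastrol alone, lost on leaving out celastrol replicate 1 or control replicate 2 (adjusted p = 0.0729 and 0.0786).

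IFI6, a membrane protein that protects against virus-induced death, was the one member called higher with TGFB1. It had 293 and 222 normalized reads with TGFB1 and celastrol, 281 and 239.8 with celastrol alone, 251 and 236 with TGFB1 alone and 174 and 154 in controls, so that the 2 control libraries were below the other 6. The IFI6 difference was 0.57 (SE 0.16, adjusted p = 0.0344) with TGFB1 alone, lost on leaving out either celastrol library, either TGFB1 library or either control library (adjusted p = 0.0543 to 0.161) and under 3 other alternatives (adjusted p = 0.0775 to 0.143). With celastrol alone it was 0.66 (SE 0.16, adjusted p = 0.00764), lost on leaving out celastrol replicate 1 (adjusted p = 0.064). With celastrol added to TGFB1 it was 0.07 (adjusted p = 0.735).

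EIF2AK2, which encodes the translation-blocking kinase PKR, had 4135 to 4940 normalized reads over the 8 libraries. Its call, -0.19 (adjusted p = 0.0397) with TGFB1 alone, was lost on leaving out either TGFB1 and celastrol library, either celastrol library, TGFB1 replicate 2 or either control library (adjusted p = 0.0608 to 0.202) and under 3 other alternatives (adjusted p = 0.135 to 0.46). XAF1, IFI35, IFI27 and RSAD2 were called in no comparison. RSAD2, which encodes viperin, had 11.9 and 7.7 normalized reads with TGFB1 and celastrol, 10 and 4.84 with celastrol alone, 7.06 and 0 with TGFB1 alone and 3.75 and 5.4 in controls, close to the limit of detection.

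Whether a member's celastrol difference depended on TGFB1 is read from the interaction and not from counts of calls. Of the 22 members called higher with celastrol added to TGFB1 and the 14 called higher with celastrol alone, 12 were the same genes, 54.5% of the first list and 85.7% of the second. They were GBP1, GBP2, HERC5, IFI16, IFI44, IFI44L, IRF1, ISG20, MX1, OAS2, PARP14 and STAT2. TRIM21 was lower in both. The overlap over all tested genes was not counted, so these shares are a description and no result about the members. The interaction was called for IFI16 and STAT2 among these 12. For HERC5, MX1, ISG20, GBP1 and IFI44L the interaction lay between -0.24 and 0.08 and was not called, with 95% intervals as wide as -1.41 to 1.56 for HERC5. For GBP2, IRF1, IFI44 and PARP14 it was not called either, but was positive under every alternative. That of OAS2, also not called, was negative under every alternative. Over the alternatives GBP2 ran from 0.53 to 0.89 and IRF1 from 0.31 to 0.67. With a common total the interaction was called for GBP2, IRF1 and PARP14.

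**Figure D3:**
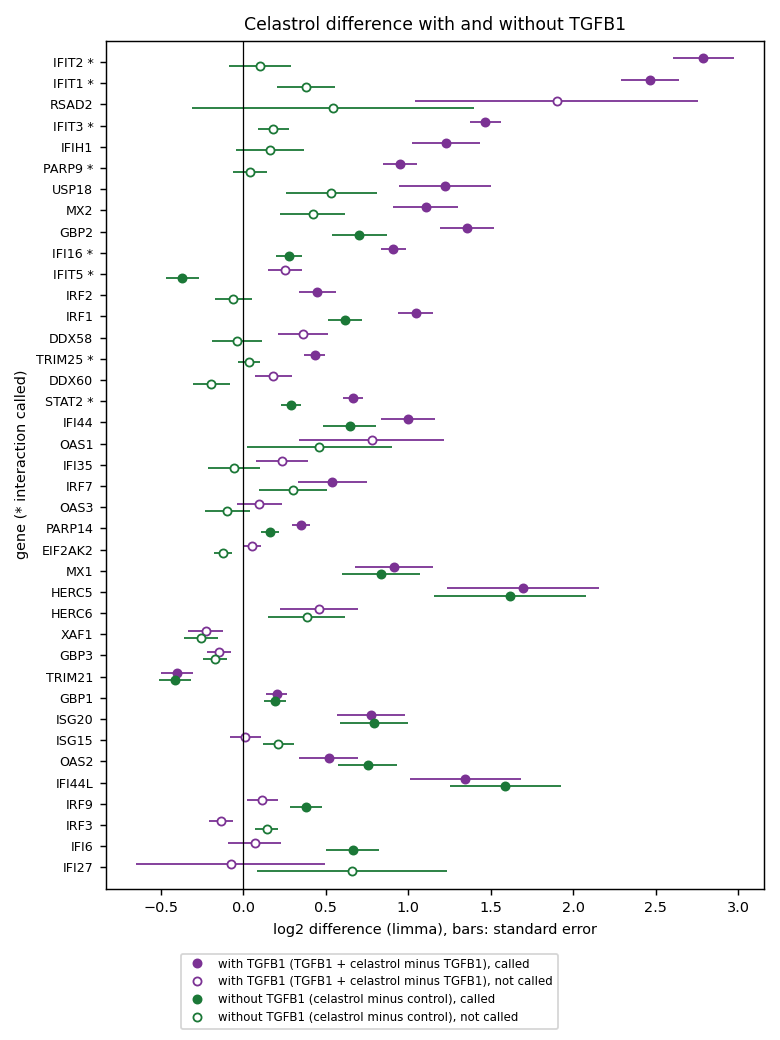
Log2 difference made by celastrol with TGFB1 (TGFB1 and celastrol minus TGFB1) and without it (celastrol minus control) for each measured interferon response gene, sorted by the difference between these values; bars are standard errors and filled points are called. The points lie farthest apart for IFIT2 (2.79 and 0.10) and IFIT1 (2.47 and 0.38), and nearly coincide for GBP1 (0.20 and 0.19) and TRIM21.

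The comparison of TGFB1 and celastrol with celastrol alone asks what TGFB1 did while celastrol was present. No member was called in either direction by limma, where 0.00437% of all genes were called higher and 0.00437% lower. At an unadjusted p under 0.05 there were 3 of 39 members, 7.69%, against 3.8% of all genes. The member differences lay between -0.25 and 0.47, and the smallest adjusted p was 1. The 3 members were STAT2 (-0.16, 95% interval -0.30 to -0.03), IRF3 (-0.23, 95% interval -0.40 to -0.07) and GBP1 (-0.25, 95% interval -0.40 to -0.10), all lower in level with TGFB1 and celastrol than with celastrol alone. The GBP1 difference was close to that with TGFB1 alone, -0.26. For IFIT1 the difference was 0.06, 95% interval -0.34 to 0.47, and for IFIT2 it was 0.24, 95% interval -0.19 to 0.67. For IFIT3 it was 0.05, 95% interval -0.17 to 0.26, and for PARP9 0.04, 95% interval -0.19 to 0.28. These 4 genes are given because their interaction was called under all alternatives, so their intervals are a description. The falls of the same genes with TGFB1 alone (-2.03, -2.45, -1.24 and -0.86) lie outside the intervals. This follows largely from choosing genes by the interaction and is no separate result.

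Per kilobase of exon, STAT2 was the most abundant member in controls, at 591 normalized reads per kilobase, followed by IFI16 at 536, EIF2AK2 at 452, GBP1 and ISG15 at 443 each. RSAD2 was the lowest at 0.947. GBP1 and ISG15 did not differ beyond the spread of their libraries. The genes with the largest differences were thus not the most abundant ones: IFIT2 had 13.4 normalized reads per kilobase with TGFB1 alone and 74.6 in controls.

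Of the 39 members, 18 lie in 7 groups of neighbours on the chromosome. Within a group, the calls were not always alike. All 4 IFIT genes fell with TGFB1, and both PARP9 and PARP14 did. Both IFI44 and IFI44L rose with celastrol alone, whereas GBP1 and GBP2 were called higher there and GBP3, next to GBP1, was not, at -0.18 (adjusted p = 0.0713). HERC5 was called higher and HERC6 was not, at 0.38 (adjusted p = 0.201).

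Promoter windows of 300 bases were found in RefSeq for 31 of the 40 genes. The ISRE core, searched on both strands, was in 21 of these 31, or 67.7%, against 3.57% of all 35116 windows and 3.07% of the 12721 windows of tested genes. It was in 9 of 12 members called lower with TGFB1 alone (75%) and in 12 of 19 others (63.2%). Among the members called in the interaction it was in 4 of 7. The GAS motif TTCNNNGAA, which reads the same on both strands, was in 9 of 31 (29%) against 7.66% of all windows. A heat shock element, searched on both strands as GAA and TTC in alternation, 3 units with any 2 bases between them, was in 0 of 31, against 0.49% of all windows. A GAS match can overlap an ISRE core, and such overlaps were kept. A match is a run of letters and not a shown binding site, and no match says only that these letters are not in the window. The short stretches below show the core, in capitals, in genes with unlike differences with TGFB1 alone.
GBP1 window, starting 6 bases before the core: aagtacTTTCAGTTTCatatta
GBP3 window, starting 6 bases before the core: aagtacTTTCAGTTTCattagg
PARP9 window, starting 6 bases before the core: gcaaagTTTCAGTTTCgcttcc
PARP14 window, starting 6 bases before the core: ggaaacGAAAGCGAAAgagtca
IFIH1 window, starting 6 bases before the core nearest the gene start: agaatcGAAACAGAAAccaaag
EIF2AK2 window, starting 6 bases before the core: caagggGAAAACGAAActgaga

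The stretch of GBP1, called lower with TGFB1, and that of GBP3, which was not, begin with the same letters. PARP9, with a difference of -0.86 with TGFB1 alone, and EIF2AK2, with -0.19, each hold 1 core close to the gene start.

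**Figure D4:**
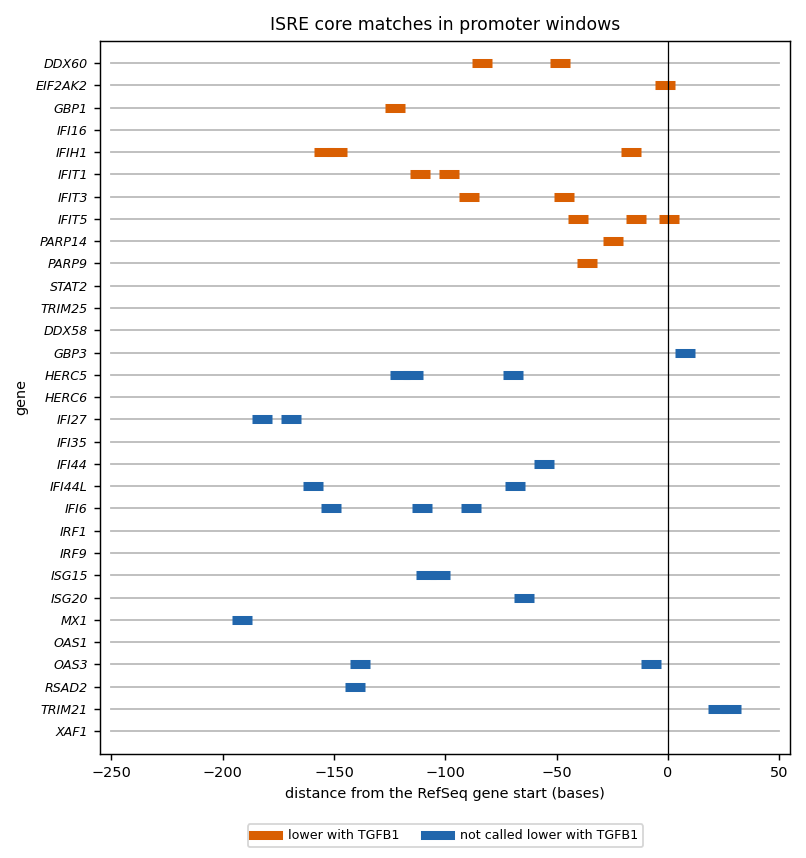
Position of ISRE core matches in the 300-base RefSeq promoter windows of the 31 interferon response genes found, as distance in bases from the gene start (vertical line). The upper 12 genes were called lower with TGFB1 alone (orange) and the lower 19 were not (blue); matches occur in 9 and 12 of them, and 10 genes have none.

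The genes upstream of the response came from lists of pathway genes, whose counts are to be read against the shares of all genes called: 37.5% higher and 25.9% lower with celastrol added to TGFB1, 33.8% and 21.3% with celastrol alone, and 12.8% and 10.6% with TGFB1 alone. Of 9 interferon ligands, 2 had rows, and IFNB1 is not among the genes analysed here. IFNE, the epithelial type I interferon, had 82.7 and 108 normalized reads with TGFB1 and celastrol, 97.4 and 79.9 with celastrol alone, 1506 and 1750.2 with TGFB1 alone and 213 and 199.7 in controls. It was highest with TGFB1 alone, where both libraries were more than 7 times either control, and lowest in the 4 celastrol libraries. IFNE rose by 2.97 with TGFB1 alone (SE 0.17, adjusted p = 9.35e-06). It fell by 4.09 with celastrol added to TGFB1 (adjusted p = 5.13e-07) and by 1.21 with celastrol alone (adjusted p = 0.000332). IFNE was thus highest in the group where IFIT1, IFIT2 and IFIT3 were lowest. IFNA2 had 21.7 and 25.3 normalized reads with TGFB1 and celastrol, 19.3 and 19.4 with celastrol alone, 2.82 and 0 with TGFB1 alone and 0 and 0 in controls. It passed the filter on low values only through the celastrol libraries, so that no test of it is given.

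Of 5 measured receptor chains, 1 was called higher and 3 lower with celastrol added to TGFB1, 1 and 3 with celastrol alone, and 1 and 0 with TGFB1 alone. IFNAR1 and IFNAR2 form the type I receptor. IFNAR1 fell by 0.35 with celastrol added to TGFB1 (adjusted p = 0.00169) and by 0.33 with celastrol alone (adjusted p = 0.00261). IFNAR2 fell by 0.96 (adjusted p = 0.000763) and 0.47 (adjusted p = 0.0321). Its second call was lost on leaving out either celastrol library or control replicate 2, and without a variance trend. IFNGR2, a chain of the interferon gamma receptor, rose by 0.65 with TGFB1 alone (adjusted p = 0.000195) and fell by 0.96 when celastrol was added (adjusted p = 5.13e-06). Its partner IFNGR1 rose by 0.43 and 0.38 in the comparisons with and without TGFB1, the first of which was lost with median centring.

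Of 12 JAK-STAT transducers and inhibitors, 4 were called higher and 3 lower with celastrol added to TGFB1, 2 and 2 with celastrol alone, and 3 and 1 with TGFB1 alone. The receptor kinase TYK2 was called in none of them. PTPN6 had 90.4 to 110 normalized reads in the celastrol libraries and 0 to 6.6 in the others. It passed the filter on low values only through the celastrol libraries, yet is among those counted higher in both celastrol comparisons. Those counts are therefore no result about the list. SOCS2, a feedback inhibitor of cytokine receptors, had 869 and 861 normalized reads with TGFB1 and celastrol, 924 and 794 with celastrol alone, 127 and 206 with TGFB1 alone and 1006 and 984 in controls, with the TGFB1 libraries far below the other 6. SOCS2 differed by 2.41 (SE 0.19, adjusted p = 1.25e-05) with celastrol added to TGFB1, by -0.22 (adjusted p = 0.373) with celastrol alone and by -2.61 (SE 0.19, adjusted p = 3.93e-05) with TGFB1 alone. SOCS3, another such inhibitor, rose by 0.63, 1.17 and 0.91 in the same 3 comparisons. SOCS1 rose by 0.91 with celastrol added to TGFB1 (adjusted p = 0.00241). JAK1 differed by -0.30 (adjusted p = 0.00238) with celastrol added to TGFB1 and by 0.29 (adjusted p = 0.00848) with TGFB1 alone. The second JAK1 call was lost without control replicate 1, with a common total and without a variance trend. PTPN2, a phosphatase that dephosphorylates JAK1, fell by 0.89 and 0.86 in the celastrol comparisons with and without TGFB1.

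Among 14 tested sensors, adaptors and kinases upstream of interferon, 6 were called higher and 6 lower with celastrol added to TGFB1, 4 and 5 with celastrol alone, and 5 and 1 with TGFB1 alone. The tested genes include ZBP1, at 0 in the control libraries and those with TGFB1 alone, which passed the filter only through the celastrol libraries. STING1, the adaptor of cytosolic DNA sensing, had 1310.2 and 1404 normalized reads with TGFB1 and celastrol, 1385 and 1469 with celastrol alone, 3212 and 3489 with TGFB1 alone and 1711 and 1529.5 in controls. It was higher in both TGFB1 libraries than in all 6 others, the reverse of the IFIT genes. STING1 differed by -1.30 (SE 0.08, adjusted p = 3.03e-06) with celastrol added to TGFB1, by -0.18 (adjusted p = 0.0803) with celastrol alone and by 1.05 (SE 0.08, adjusted p = 4.4e-05) with TGFB1 alone. CGAS, the enzyme upstream of STING1, rose by 0.99 with celastrol added to TGFB1, by 1.43 with celastrol alone and by 0.37 with TGFB1 alone, the last call being lost without TGFB1 replicate 1 or either control library. TRAF3, an adaptor of several sensors, differed by -0.97 (adjusted p = 4.7e-06) with celastrol added to TGFB1, -0.45 (adjusted p = 0.000429) with celastrol alone and 0.41 (adjusted p = 0.00215) with TGFB1 alone. The last TRAF3 call was lost with a common total and with only the compared libraries fitted. MAVS, the adaptor of RIG-I and MDA5, fell by 0.47 and 0.63 in the celastrol comparisons with and without TGFB1.

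**Figure D5:**
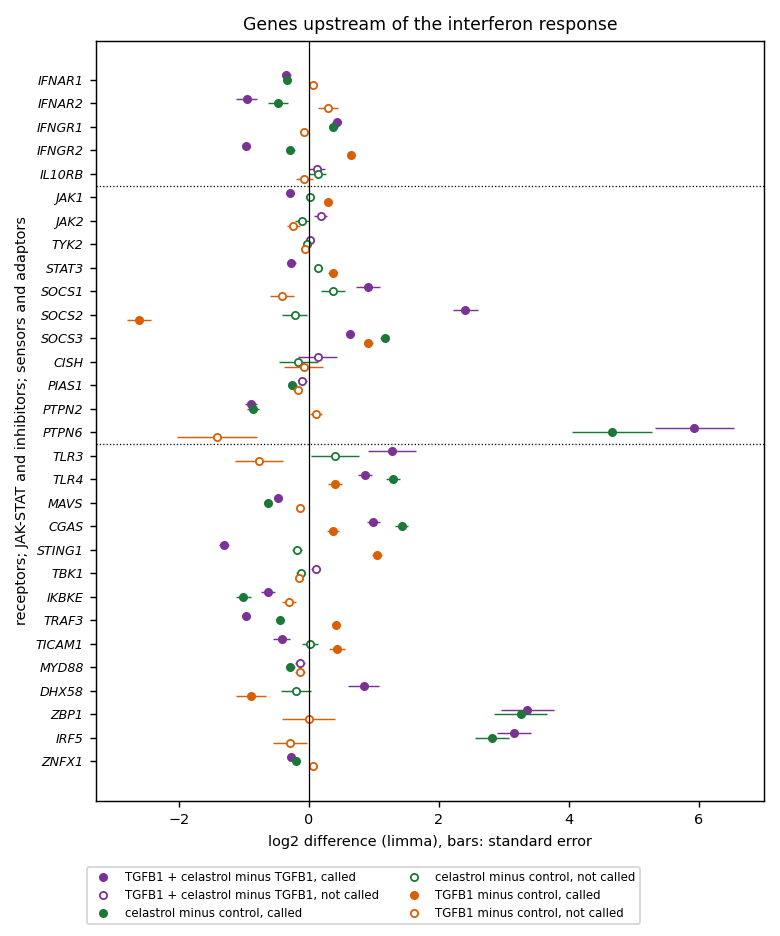
Log2 difference of receptors, JAK-STAT genes and upstream sensors and adaptors in 3 comparisons, with standard errors; filled points are called. SOCS2 lies at -2.61 with TGFB1 alone and at 2.41 when celastrol is added, STING1 at 1.05 and -1.30, and TYK2 lies near 0 throughout.

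A further 47 interferon-stimulated genes that are no members were listed, of which 40 were tested. Celastrol added to TGFB1 gave 14 higher and 7 lower (median 0.22), celastrol alone 9 and 5 (median 0.10), and TGFB1 alone 3 and 12 (median -0.19), against medians of 0.12, 0.08 and 0 over all genes. The tested genes include BST2 and RTP4, which passed the filter on low values only through the celastrol libraries. RTP4 was at 21.8 to 27.5 normalized reads with celastrol and 3.69 to 5 without. The shares called higher in both celastrol comparisons were no larger than those of all genes. APOL6, an apolipoprotein L, had 1084 and 1176 normalized reads with TGFB1 and celastrol, 1091 and 1108 with celastrol alone, 304 and 280.2 with TGFB1 alone and 699 and 741 in controls. TGFB1 libraries were the lowest and celastrol libraries the highest, with controls between. APOL6 differed by 1.95 (SE 0.08, adjusted p = 5.35e-07) with celastrol added to TGFB1, by 0.61 (SE 0.08, adjusted p = 0.000262) with celastrol alone and by -1.30 (SE 0.08, adjusted p = 1.44e-05) with TGFB1 alone. CD274, the immune checkpoint ligand PD-L1, ran the other way with TGFB1: it had 1188 and 1146 normalized reads with TGFB1 and celastrol, 1447 and 1291 with celastrol alone, 1994 and 2014 with TGFB1 alone and 434 and 473 in controls. Its differences were -0.78 (adjusted p = 4.18e-05) with celastrol added to TGFB1, 1.59 (adjusted p = 1.46e-06) with celastrol alone and 2.14 (adjusted p = 9.56e-07) with TGFB1 alone. PARP12 and TRIM26 rose with celastrol by 1.24 and 0.97 in the presence of TGFB1. IFITM3, which blocks virus entry, was called in none of these comparisons, BST2, at 4.2 to 17.6 normalized reads, passed the filter only through the celastrol libraries, and CXCL10 is not among the genes analysed here.

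Markers of other cell types were also measured beside the members that rose with celastrol. Of 8 immune cell markers 5 had rows, with a summed level of 403 and 547 normalized reads with TGFB1 and celastrol, 412 and 504 with celastrol alone, 320 and 311 with TGFB1 alone and 245 and 369 in controls. Of these, ITGAM and CD14 passed the filter on low values only through the celastrol libraries, so no count of calls is given. ITGAM was at 0 in all TGFB1 and control libraries, and CD68 made up most of the immune sum in every library. The 4 endothelial markers with rows summed to 465 and 360.5 with TGFB1 and celastrol, 370.5 and 354 with celastrol alone, 98.9 and 52.7 with TGFB1 alone and 92.5 and 52.8 in controls, and PECAM1 was at 0 with TGFB1 alone. The 2 melanocyte markers with rows summed to 122 and 95.7 with TGFB1 and celastrol, 134 and 105 with celastrol alone, 14.1 and 11.1 with TGFB1 alone and 8.75 and 11.4 in controls. This rise was in MLANA, while PMEL lay between 8.75 and 20.6 in all libraries. The 2 keratinocyte markers with rows summed to 879 to 1063 over the 8 libraries, nearly all of it KRT10. TP63 had 9.11 and 7.7 with TGFB1 and celastrol, 7.73 and 7.27 with celastrol alone and 0 in the TGFB1 and control libraries. The part of these markers in the members' results was not tested.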

How the data were processed

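RNA of 8 libraries in 4 groups of 2 was measured, with groups and replicate numbers taken from the labels; for celastrol replicate 2 another label gives 3. Libraries came from total RNA extracted with TRIzol, per the labels' protocols. The submitters' processing notes name Partek 10.0.22, STAR 2.7.3a, DESeq2 and hg38, with no roles; neither the annotation nor the counting rule and its use of strand is given in those sources. The deposited signal is 1 value per gene and library. Within each library 68.7% to 76.6% of values below 10000 were whole multiples of 1 step (within 0.02 reads), so the values are read as estimated reads over a size factor. No count model was fitted. Of the members, 26 had whole reads in every library and 13 had fractional values in some, and exons of 14 overlap another gene (5 on the same strand). The smallest maximum of any gene was 11 estimated reads.

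Values were tested as log2(value + 1), which understates the change of low genes, with limma 3.58.1 in R 4.3.3 (variance trend, 4 residual degrees of freedom, two-sided). A gene entered with 10 or more normalized reads in 2 or more libraries, and p-values were adjusted within each of 5 comparisons over all tested genes. The fit was tested on simulated data. The members and gene lists were chosen with earlier results of these data known. Values in every library are given for members called in 1 of the first 3 comparisons with non-overlapping groups and a mean of at least 50 in the higher group, up to 12 per comparison; of each list up to 4 genes of smallest p per comparison are named, plus a fixed few, some of which are not reported here. The 16 alternatives (15 for the interaction) changed the scaling, pseudocount, filter, variance model or libraries.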

Additional observations from a re-analysis of the deposited data

Results flagged for a closer look

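In 8 members the celastrol difference with TGFB1 and the celastrol difference without it were unlike by the interaction test of limma itself. The interaction, on the log2 scale, was 2.69 for IFIT2, 2.09 for IFIT1, 1.29 for IFIT3, 0.91 for PARP9, 0.63 for IFI16, 0.62 for IFIT5, 0.40 for TRIM25 and 0.37 for STAT2. In each of them the 2 libraries with TGFB1 and celastrol were above the 2 with TGFB1 alone. The calls of IFIT1, IFIT2, IFIT3 and PARP9 held under all 15 alternatives run for the interaction, and those of the other 4 did not.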

How the results depend on the processing

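Of the members called, the calls of 12 of 22 higher and 1 of 1 lower held under all 16 alternatives with celastrol added to TGFB1, 3 of 14 higher and 0 of 2 lower with celastrol alone, 0 of 1 higher and 7 of 15 lower with TGFB1 alone, and 4 of 8 in the interaction under its 15. The median log2 difference of all genes with TGFB1 alone was 0 as reported, -0.21 with a common total and 0.12 with each library centred on its median; with celastrol added to TGFB1 it was 0.12, 0.28 and -0.17. With median centring, 6 members were called lower with celastrol added to TGFB1, where 16 member calls held, 7 were lost and 5 were gained. With celastrol alone 9 members were called higher and 6 lower, and in the interaction 5 higher and 1 lower. Of 22866 genes, 6956 were then higher and 9094 lower with celastrol added to TGFB1. With celastrol alone 6751 of all genes were higher and 7470 lower, and in the interaction 784 higher and 2748 lower. GBP1 with celastrol added to TGFB1 turned to -0.087 and PARP14 with celastrol alone to -0.0092. With a common total, 5 were lower with celastrol alone, 0 higher with TGFB1 alone and 15 higher in the interaction, where 6068, 1417 and 2474 of all genes were. Without a variance trend, 1 was lower with celastrol alone, 0 higher with TGFB1 alone and 4 higher in the interaction. Of all genes 3943, 1836 and 577 were. With only the compared libraries, 0 were higher and 8 lower with TGFB1 alone, where 1064 and 620 of all genes were.

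Leaving out single libraries ended some member calls in each of the comparisons that had any, as given by gene above. The lone library of a group is then assumed to vary like the other groups, so no counts of calls are given for these fits. The replicate block gave 4 lower with celastrol alone, where 5406 of all genes were. Replicate numbers were not treated as pairs, since correlations of replicate differences between groups were 0.05 to 0.082; the block ended no member's call. The cause of these shifts was not tested. With 2 libraries a group and 3 reads worth up to 4.24 normalized reads, OAS1 and RSAD2, at 0 to 12.6 normalized reads, lie near the limit of the depth.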

Other observations

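Antigen presentation genes include many that interferon induces. Of 20 tested, 4 were called higher and 5 lower with celastrol added to TGFB1 (median -0.11), 2 and 3 with celastrol alone (median 0.02), and 0 and 2 with TGFB1 alone (median 0.02). CIITA, at 15.4 to 18.1 normalized reads with celastrol and 1.41 to 6.15 without, passed the filter only through the celastrol libraries. It is among those counted higher with celastrol alone. No share called higher or lower was above that of all genes in the celastrol comparisons, and 11 of the 20 were not called with celastrol added to TGFB1. ERAP2, an aminopeptidase that trims peptides, had 305 and 354 normalized reads with TGFB1 and celastrol, 328 and 312 with celastrol alone, 102 and 84.8 with TGFB1 alone and 140.1 and 142 in controls. All 4 celastrol libraries were above the rest. ERAP2 differed by 1.81 (SE 0.14, adjusted p = 1.16e-05) with celastrol added to TGFB1, by 1.18 (adjusted p = 0.000162) with celastrol alone and by -0.60 (adjusted p = 0.0174) with TGFB1 alone. The last ERAP2 call was lost without TGFB1 replicate 2 or either control library, and with only the compared libraries fitted. PSMB9, an immunoproteasome subunit, differed by 0.57 (adjusted p = 0.0298) with celastrol added to TGFB1, -0.05 (adjusted p = 0.84) with celastrol alone and -0.82 (adjusted p = 0.0172) with TGFB1 alone. The last PSMB9 call was lost without TGFB1 replicate 1 or either control library, and with only the compared libraries fitted. The peptide transporter subunit TAP1 fell by 0.37 with celastrol added to TGFB1 and by 0.32 with celastrol alone, the second lost without control replicate 2. NLRC5, a regulator of class I genes, fell by 0.47 and 0.60 in the same comparisons. B2M, the constant chain of class I molecules, was called in none of the 3 comparisons, at 18375 to 19528 normalized reads as group means.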
